A study of Mus musculus with 4 samples.

Results

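The 10 genes described here encode receptors with which innate immune cells detect microbial and damage-derived molecules: the Toll-like receptors Tlr2, Tlr4, Tlr7 and Tlr9, the lipopolysaccharide co-receptor Cd14, the C-type lectin receptors Clec4d, Clec4e, Clec4n and Clec7a, and the cytosolic sensor Nod2. They were taken by gene symbol from the list of 32285 genes that each count table covers. The symbol search found 9 of the 10, and Clec7a was not analysed here. Given for the 9 measured receptors are their level in each marrow cell type and the difference between mice given purinostat mesylate (PM) and mice given vehicle.

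Toll-like receptors signal as dimers, at the plasma membrane for Tlr2 and Tlr4 and in endosomes for the nucleic acid sensors Tlr7 and Tlr9, and pass the signal through adaptors such as Myd88 to NF-kB and interferon regulatory factors. Clec4d, Clec4e (Mincle) and Clec4n (Dectin-2) bind glycolipids and mannans of fungi and mycobacteria and signal through the Fc receptor gamma chain (Fcer1g) and the kinase Syk. Nod2 senses muramyl dipeptide of bacterial walls through the kinase Ripk2. In marrow these receptors are known from neutrophils, monocytes, macrophages, dendritic cells and, for the endosomal sensors, B cells and plasmacytoid dendritic cells.

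The samples were single-cell libraries of whole bone marrow from 4 mice of the 5TMM myeloma model, 2 given vehicle and 2 given PM, an inhibitor of class I and IIb histone deacetylases, at 10 mg/kg, all taken 24 h after treatment. In this model the luciferase-marked mouse myeloma line 5TGM1 is injected by vein into young C57BL/KawRij mice and grows in their marrow. Both groups therefore carried the tumour, the tumour came from a single line, the hosts were immunocompetent, and no tumour-free marrow was analysed here. Erythrocytes were lysed before loading, no cell type was sorted, and the sex of the mice is not given in the sources used here.

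The deposited tables held 69828595 to 109447030 unique molecular identifiers (UMIs, 1 per captured RNA molecule) per mouse. After a filter on genes and mitochondrial share, 7826 to 13387 cells remained per mouse, 17087 in vehicle and 22656 in PM mice, and 38785 of the 39743 cells fell into 16 marker-defined types. Levels are given as CPM, the UMIs of a gene scaled by the total UMIs of all cells of a type in a mouse. Between 6.07% and 10.6% of the cells of a mouse were called doublets, and 158 barcodes occurred in more than 1 library. The neutrophil transcripts used as a check of free or co-captured RNA were present in every type. Their summed level was 346787 to 380521 CPM in neutrophils, 115656 to 233120 CPM in macrophages and 155007 to 245566 CPM in the Cxcl12-expressing stromal (CAR) cells. It was 800.3 to 3417 CPM in conventional dendritic cells (cDC) and 1097 to 2569 CPM in plasmacytoid dendritic cells (pDC). S100a8 and S100a9 were on this list, at 8602 and 7623 CPM in monocytes and their progenitors of vehicle mouse 1. The list summed to 21622 CPM there. Such a sum cannot tell RNA made by a type itself from RNA of neutrophils.

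The receptors fell into 2 patterns across the marrow. Tlr2, Tlr4, Cd14, Clec4d, Clec4e, Clec4n and Nod2 all had their highest mean level, among the 16 types, in a cluster of inflammatory neutrophils led by Ptgs2 and Il1b, which held 123 to 439 cells per mouse, whereas Tlr7 and Tlr9 were highest in pDC. The inflammatory cluster was named from its inflammatory markers. Its neutrophil transcripts summed to 97342 to 128630 CPM, below those of the other neutrophils in each mouse. Single clusters or sub-classes within a type could be higher, as for Tlr2 in mature neutrophils and Nod2 in MHC class II monocytes. Because cell types were defined from the same cells, these levels are a description without a test.

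Of 144 pairs of a measured receptor and a cell type, 65 had enough UMIs to be tested, and 2 were called by edgeR's quasi-likelihood test at a Benjamini-Hochberg adjusted p under 0.05 and an absolute log2 fold change over 0.5. These were Tlr7 in monocytes and their progenitors (mono&prog), which fell, and Tlr7 in B cells, which rose. The share of 3.08% compares with 1.42% of the 127330 pairs of any gene and a type. Before adjustment, 16 of the 65 pairs had p under 0.05. The share of all genes under that unadjusted p was not counted, here or for any type below, so such counts cannot be set against it. DESeq2 also called 2 pairs, Tlr7 and Tlr2 in mono&prog, so that 1 of the 2 was shared. The other 79 pairs had too few UMIs and are given as levels only.

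**Figure D1:**
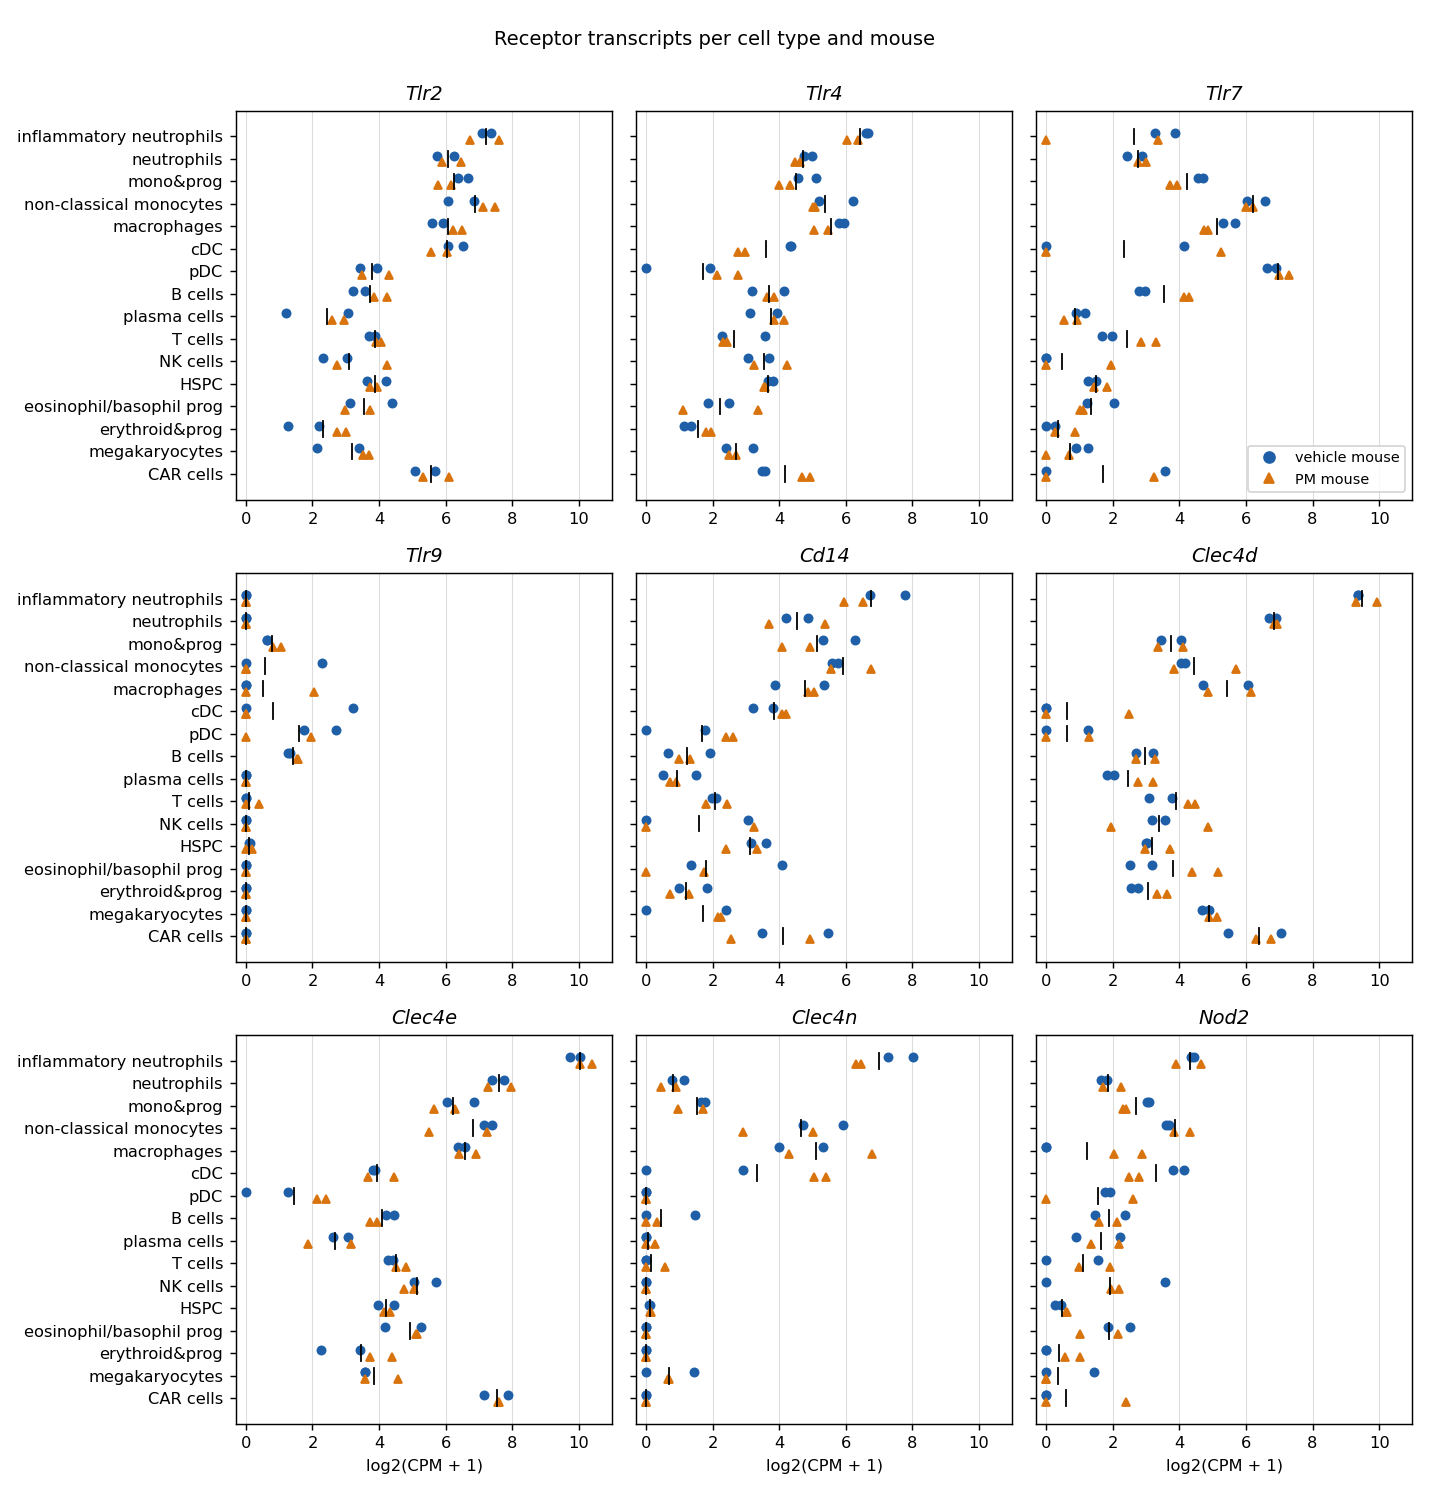
Level of each of the 9 measured receptors in the marrow cell types, in CPM on a log axis, with 1 point per mouse (vehicle and PM marked separately). Clec4d and Clec4e in inflammatory neutrophils lay between 637 and 1334 CPM in all 4 mice, and Tlr7 in pDC lay between 97.6 and 156 CPM.

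Among the surface receptors, Tlr2, which pairs with Tlr1 or Tlr6 to bind bacterial lipopeptides (chr3:83836272-83841767, minus strand, GRCm38), was spread over the myeloid types. In inflammatory neutrophils it measured 162 and 136 CPM under vehicle and 105 and 194 CPM under PM, with a mean of 149 ± 37.6 (SD, n = 4). The ranges of inflammatory neutrophils, non-classical monocytes (124 ± 46.2), mono&prog (76.6 ± 19.7), neutrophils (67.8 ± 15.5), macrophages (67.5 ± 18.5) and cDC (66.9 ± 18.7) overlapped from each type to the next. Haematopoietic stem and progenitor cells (HSPC), T cells, pDC and B cells followed at 12.6 to 13.9 CPM, below CAR cells at 47.4 ± 15.4, and erythroid cells were lowest at 4.43 ± 2.48. After drawing 2000 UMIs per cell, 16.2 ± 2.61% of neutrophils and 16.7 ± 3.10% of mono&prog held a Tlr2 UMI (29.7% and 55.2% without thinning), against 1.60 ± 0.714% of T cells, with median depths of 4986, 11064 and 3564 UMIs.

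In mono&prog, Tlr2 measured 99.8 and 82.5 CPM under vehicle and 53.0 and 71.1 CPM under PM. Both PM mice lay below both vehicle mice, in a comparison in which 1.23% of 11713 genes were called higher and 0.546% lower. The log2 fold change was −0.60 ± 0.14 (SE) with an adjusted p of 0.068 in edgeR, which missed the threshold, and −0.61 with an adjusted p of 0.045 in DESeq2, which passed it. In neutrophils Tlr2 measured 74.3 and 52.1 against 58.3 and 86.4 CPM, with overlapping groups. The log2 fold change there was 0.09 ± 0.23 (adjusted p = 0.85), where 4.76% of 12089 genes were called higher and 0.596% lower, and 0 of the 8 receptors that passed the filter were called by edgeR or by DESeq2, with 1 (Tlr4) under an unadjusted p of 0.05.

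The PM effect on Tlr2 differed between the 2 types. Tested as an interaction with the mouse as a block, the change in mono&prog minus that in neutrophils was −0.70 ± 0.12 on the log2 scale (adjusted p = 0.0012, edgeR), in a comparison in which 4.91% of 12891 genes were called. The call was lost without PM mouse 2 (−0.64, adjusted p = 0.059). Within mono&prog, cluster 9, led by F13a1, Fn1 and Nrg1, had Tlr2 at 57.4 and 39.5 CPM under vehicle and 24.0 and 29.7 CPM under PM. There Tlr2 fell by 0.91 on the log2 scale (SE 0.18, adjusted p = 0.028, edgeR), where 1.41% of 10935 genes were called. In cluster 4, led by Vcan, Fn1 and Saa3, it measured 155 and 150 against 104 and 144 CPM (−0.32 ± 0.14 on the log2 scale, adjusted p = 0.31), with 2.51% of 10599 genes called. Both clusters were fitted by themselves after the whole type had been seen. Over the single clusters of neutrophils, mono&prog and B cells, 67 pairs of a receptor and a cluster were tested. Tlr2 in cluster 9 was the only 1 called by edgeR, and 15 had an unadjusted p under 0.05. The share of all genes called is given only for clusters 4 and 9 and for cluster 7 of B cells. These counts over all clusters therefore have no share of all genes to be set against.

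Non-classical monocytes, which patrol vessel walls and whose cluster was led by Ace, Adgre4 and Cd300e together with the heat shock genes Hspa1a and Hspa1b, had Tlr2 at 115 and 66.7 CPM under vehicle and 177 and 138 CPM under PM. Both PM mice lay above both vehicle mice, with 17 to 41 Tlr2 UMIs behind each value. The log2 fold change of 0.85 ± 0.37 had an adjusted p of 0.77 in edgeR, where 0.0254% of 3931 genes were called, and 0 of 4 receptors tested were called by edgeR or DESeq2, with Tlr2 as the only 1 under an unadjusted p of 0.05. Neutrophil transcripts in these cells summed to 6535 and 23374 CPM under vehicle and 35589 and 51152 CPM under PM, and their part in the Tlr2 values was not tested.

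Tlr4, the lipopolysaccharide receptor (chr4:66827584-66930284, plus strand), had its highest level among the types in inflammatory neutrophils, at 95.6 and 101 CPM under vehicle and 81.5 and 64.6 CPM under PM. All 4 mice lay above the highest macrophage value of 60.5 CPM, while single clusters of the other neutrophils overlapped them (cluster 3 at 89.9, 75.3, 47.6 and 57.9 CPM). Macrophages followed at 47.7 ± 12.6 and non-classical monocytes at 43.2 ± 19.9 CPM (SD, n = 4), with overlapping ranges, and neutrophils (25.4 ± 4.21) and mono&prog (22.5 ± 7.89) overlapped further down.

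Lower Tlr4 under PM was measured in both large myeloid types, without passing the threshold. In neutrophils the values were 30.9 and 26.0 against 21.1 and 23.4 CPM, and in mono&prog 33.3 and 22.7 against 14.9 and 18.8 CPM. The groups did not overlap in either type. The log2 fold changes were −0.45 ± 0.12 (adjusted p = 0.064) in neutrophils and −0.79 ± 0.19 (adjusted p = 0.086) in mono&prog by edgeR, and their difference was −0.35 ± 0.14 (adjusted p = 0.19). Both PM mice also lay below both vehicle mice in macrophages, cDC and non-classical monocytes, each on at most 26 UMIs per mouse.

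Cd14, the membrane co-receptor that hands lipopolysaccharide to Tlr4, differed widely between mice of the same group. In inflammatory neutrophils it measured 221 and 106 CPM under vehicle and 91.1 and 60 CPM under PM, without overlap, for a log2 fold change of −0.97 ± 0.41 (adjusted p = 0.25). In mono&prog it measured 76.4 and 38.4 CPM under vehicle and 15.9 and 29.2 CPM under PM. The groups did not overlap, but the log2 fold change of −1.44 had a standard error of 0.56 and an adjusted p of 0.45. In neutrophils Cd14 measured 28.4 and 17.4 against 11.9 and 40.8 CPM, so that the PM mice lay on either side of the vehicle mice. Transcripts that respond to handling summed to 3511, 3199.6, 1521 and 3297 CPM in mono&prog of vehicle 1, vehicle 2, PM 1 and PM 2, and to 1152, 1205, 1219.8 and 2094 CPM in neutrophils. PM 1 was lowest in mono&prog and PM 2 highest in neutrophils for both these transcripts and Cd14, while the order of the other mice differed. In inflammatory neutrophils the handling transcripts summed to 9719, 10872, 11392 and 16285 CPM, the reverse of the order of Cd14. When mono&prog was clustered by itself, Cd14 was among the leading genes of an unnamed sub-cluster. That sub-cluster held 400 and 236 cells under vehicle and 1 and 20 under PM. The part of handling and of this makeup in the Cd14 values was not tested.

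Among the endosomal receptors, Tlr7, which binds single-stranded RNA (chrX:167304929-167330558, minus strand), differed strongly between cell types. In pDC it measured 97.6 and 120 CPM under vehicle and 126 and 156 CPM under PM, with a mean of 125 ± 24.2 (SD, n = 4). Each pDC value was above each value of non-classical monocytes (63.3 to 94.1 CPM), these were above macrophages (25.6 to 49.9 CPM), and macrophages were above mono&prog (12.2 to 25.1 CPM). T cells stood at 5.00 ± 3.05 CPM and erythroid cells at 0.306 ± 0.357 CPM. Thinned to 2000 UMIs, 20.1 ± 3.16% of pDC and 11.9 ± 2.39% of non-classical monocytes held a Tlr7 UMI, against 0.793 ± 0.510% of T cells, with median depths of 5631, 3758.5 and 3564 UMIs. pDC are known for strong interferon production through Tlr7 and Irf7.

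In mono&prog, Tlr7 measured 22.7 and 25.1 CPM under vehicle and 14.4 and 12.2 CPM under PM, from 91 to 338 UMIs per mouse. Both PM mice lay below both vehicle mice. Tlr7 fell by 0.85 on the log2 scale (SE 0.16, adjusted p = 0.030, edgeR), the mean under PM being 0.557 times that under vehicle. Of the 8 receptors tested in mono&prog it was the only 1 called by edgeR, and 4 were under an unadjusted p of 0.05. The call was lost without PM mouse 1 (−1.04, adjusted p = 0.16) and without PM mouse 2 (−0.72, adjusted p = 0.15).

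The makeup of mono&prog moved along with this value. Sub-clustering without the receptors and without the genes called between the groups gave a sub-class raised for MHC class II genes, with 151 and 88 cells under vehicle but 15 and 20 cells under PM. It made up 14.9% and 13.1% of mono&prog under vehicle and 1.17% and 4.03% under PM. Ace and Adgre4, which also led the non-classical monocytes, were among its leading genes, and the non-classical markers scored second for it. Unnamed sub-clusters also followed the groups, one with 400 and 236 against 1 and 20 cells and one with 5 and 22 against 556 and 195 cells. Tlr7 in this sub-class was 69.1 and 127 CPM under vehicle and 81.1 and 91.9 CPM under PM, so that the groups overlapped and the level exceeded that of the whole type in each mouse. In that sub-class 0.162% of 6164 genes were called, 0 of 6 receptors tested were called by edgeR or DESeq2, and 2 (Tlr4 and Clec4n) were under an unadjusted p of 0.05. Each of these 2 passed the filter on low counts only through the group in which it was higher.

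Without the MHC class II cells, Tlr7 in mono&prog measured 18.5 and 17.5 CPM under vehicle and 14.0 and 10.6 CPM under PM. The groups still did not overlap, but the log2 fold change was −0.55 ± 0.19 with an adjusted p of 0.21, where 1.63% of 11570 genes were called and 0 of 8 receptors by edgeR, 1 by DESeq2 and 4 at an unadjusted p under 0.05. Within cluster 4 the values were 43.3 and 56.7 against 33.9 and 29.0 CPM (−0.64 ± 0.18, adjusted p = 0.093). Within cluster 9 they were 6.80 and 4.87 against 3.32 and 2.74 CPM (−0.94 ± 0.33, adjusted p = 0.23). Both clusters thus had lower Tlr7 in both PM mice, and neither passed the test by itself.

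The PM effect on Tlr7 in mono&prog also differed from that in neutrophils, where Tlr7 measured 4.33 and 6.30 CPM under vehicle and 7.0 and 5.77 CPM under PM. The difference of the log2 fold changes was −1.10 ± 0.19 (adjusted p = 0.0012, edgeR interaction). It remained called without the MHC class II cells, at −0.80 ± 0.21 (adjusted p = 0.032), where 4% of 12872 genes were called, and it was lost without PM mouse 1 (−1.06, adjusted p = 0.091). Tlr2 was likewise called without these cells, at −0.70 ± 0.12 (adjusted p = 0.0019).

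B cells had the opposite change in Tlr7, which is known to drive B cell responses to RNA-containing antigens. The level was 6.89 and 5.95 CPM under vehicle and 18.4 and 16.6 CPM under PM, from 5, 20, 74 and 44 UMIs. Both PM mice lay far above both vehicle mice, at a mean 2.72 times as high. Tlr7 rose by 1.5 on the log2 scale (SE 0.34, adjusted p = 0.0094, edgeR), in a comparison in which 3.1% of 10638 genes were called higher and 3.3% lower. It was the only 1 of 6 receptors tested that was called or had an unadjusted p under 0.05. The call was lost with DESeq2 (1.48, adjusted p = 0.26) and without vehicle mouse 2 (adjusted p = 0.26), PM mouse 1 (0.23) or PM mouse 2 (0.0501).

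The B cells of the 2 groups were made up differently as well. The cluster led by Ighd and Fcer2a, genes of mature B cells (cluster 7), held 48.3% and 27.7% of B cells under vehicle and 64.7% and 56.0% under PM. The cluster led by the pre-B genes Vpreb1, Igll1 and Rag1 (cluster 15) held 34.7% and 50% under vehicle and 12.3% and 16.8% under PM. Tlr7 stood at 14.3 and 18.1 against 28.7 and 21.2 CPM in the first and at 2.87 and 1.94 against 4.08 and 3.11 CPM in the second.

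Within cluster 7 the PM mice were still above the vehicle mice, but the log2 fold change was 0.57 ± 0.41 (adjusted p = 0.60, edgeR), where 2% of 8240 genes were called and 0 of 3 receptors by either tool or at an unadjusted p under 0.05. In cluster 15 Tlr7 had too few UMIs to be tested. In another cluster led by Ms4a1 and Tnfrsf13c (cluster 17) it measured 0 and 5.18 against 15.2 and 29.1 CPM, from 0, 3, 13 and 19 UMIs, and was not tested either. The 0 came from 41 cells of vehicle mouse 1, in which a single UMI amounts to 10.2 CPM. The part of the changed makeup in the rise of Tlr7 in all B cells was not tested by itself.

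**Figure D2:**
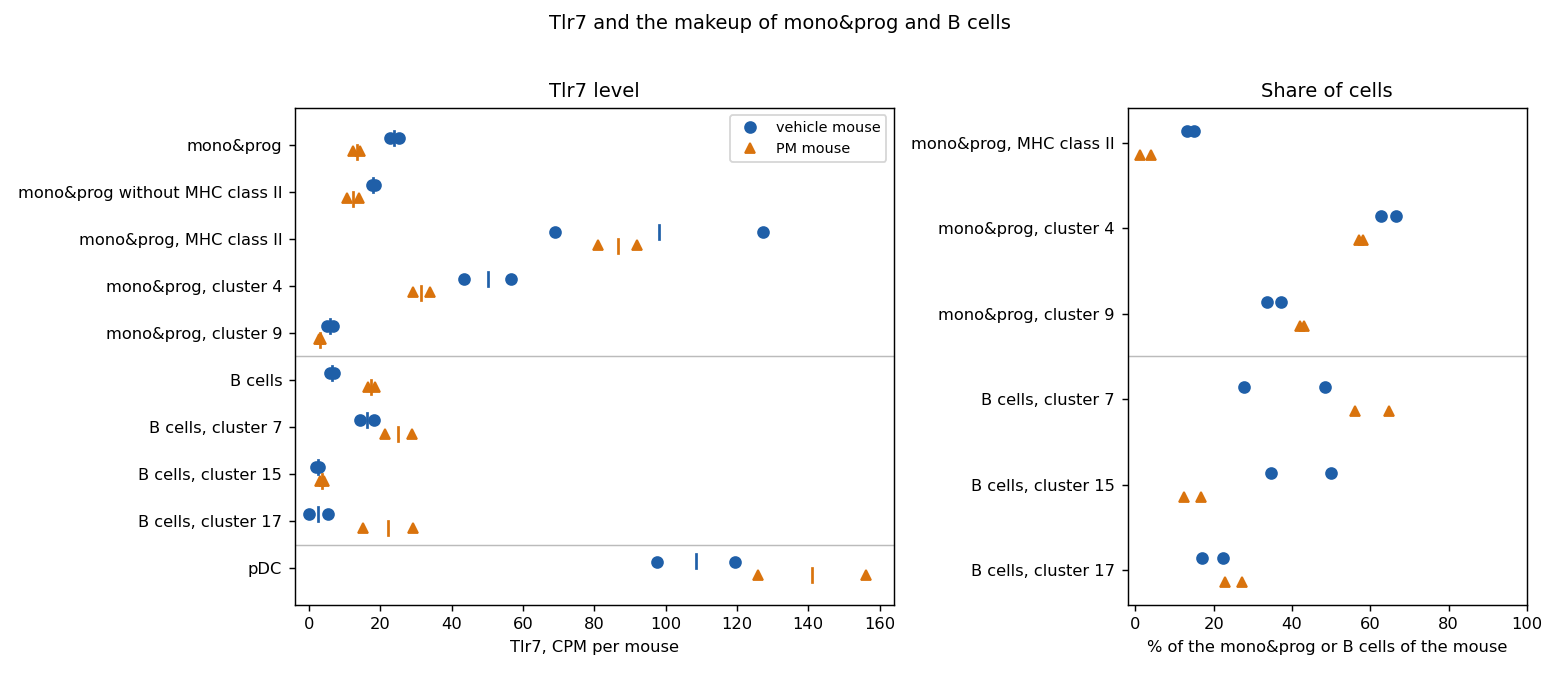
Left, Tlr7 in CPM per mouse in mono&prog, B cells and pDC and in sub-classes and clusters of the first 2, with a line at each group mean. Right, the share of mono&prog or B cells that each class held per mouse. Lower Tlr7 in mono&prog under PM came with a share of MHC class II cells of 1.17% and 4.03% against 14.9% and 13.1%, and higher Tlr7 in B cells came with a larger share of cluster 7.

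In pDC both PM mice had more Tlr7 than both vehicle mice, at a mean of 141 ± 21.5 against 109 ± 15.5 CPM (SD, n = 2). The difference did not pass the test, at 0.31 ± 0.22 on the log2 scale (adjusted p = 0.70, edgeR), where 0.965% of 7566 genes were called higher and 0.119% lower. Tlr7 was the only receptor with enough UMIs to be tested in pDC, and DESeq2 did not call it. Sub-clusters of pDC also followed the groups, one with 1 and 3 cells under vehicle and 91 and 58 under PM. Another held 44 and 60 against 1 and 14 cells, and the part of this makeup in the Tlr7 values was not tested.

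Tlr9, the sensor of unmethylated CpG DNA (chr9:106222598-106226883, plus strand), was close to the limit of detection in every type. Its highest mean was in pDC, at 2.38 and 5.56 CPM under vehicle and 2.89 and 0 CPM under PM, from 7 UMIs in all. B cells held 19 Tlr9 UMIs, at 1.38, 1.49, 1.99 and 1.88 CPM, and mono&prog held 35. The values in mono&prog were 0.538 and 0.557 CPM under vehicle and 0.744 and 1.08 CPM under PM. In both types the PM mice lay above the vehicle mice, on 1 to 13 UMIs per mouse, and Tlr9 was not tested in either. None was counted in 147529847 neutrophil UMIs, which allows a level of up to 0.0203 CPM (3 counts, counting error only).

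The C-type lectin receptors Clec4n, Clec4d and Clec4e lie side by side on chromosome 6 (GRCm38). Clec4n covers chr6:123229843-123247021 on the plus strand, Clec4d chr6:123262111-123275265 on the plus strand and Clec4e chr6:123281789-123289870 on the minus strand. The annotation has only these 3 genes within the 60028 bases, with gaps of 15.1 and 6.52 kb, so that Clec4d and Clec4e end toward each other. Clec4d and Clec4e were alike over cell types, with inflammatory neutrophils and then other neutrophils highest for both, and their 250 bases before the start site are therefore shown 5′ to 3′ in the direction of transcription (RefSeq, GRCm38.p6), Clec4d from chr6:123261857-123262106 and Clec4e from chr6:123289872-123290121, with motif matches in capitals.
Clec4d: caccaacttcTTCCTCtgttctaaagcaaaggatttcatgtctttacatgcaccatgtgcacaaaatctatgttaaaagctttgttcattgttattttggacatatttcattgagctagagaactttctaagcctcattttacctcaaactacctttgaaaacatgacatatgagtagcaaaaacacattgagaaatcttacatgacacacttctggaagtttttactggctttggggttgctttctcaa
Clec4e: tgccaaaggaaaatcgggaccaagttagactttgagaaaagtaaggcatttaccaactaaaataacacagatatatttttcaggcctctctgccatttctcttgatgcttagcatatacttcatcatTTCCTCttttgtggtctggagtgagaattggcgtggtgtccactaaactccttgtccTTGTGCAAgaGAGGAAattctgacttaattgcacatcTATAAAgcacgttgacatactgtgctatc

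The letters of 5 motifs were searched on both strands: GAGGAA, the core bound by the myeloid factor PU.1 (TTCCTC on the other strand), TTGCNNAA for C/EBP factors, the NF-kB motif, TGANTCA for AP-1 and the TATA box TATAAA. Clec4d held 1 PU.1 core, 240 bases before the start. Clec4e held 2 PU.1 cores at 123 and 56 bases, a C/EBP match at 66 bases and a TATA box at 29 bases before the start, and neither window held the NF-kB or AP-1 letters. Of 27025 promoters of the same length, 23.1% hold the PU.1 core, 9.55% the C/EBP letters, 45.4% the NF-kB letters, 6.87% the AP-1 letters and 13% the TATA box. A match describes the letters of the window and is not a measured binding site.

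Clec4e was the most abundant of the 9 receptors in inflammatory neutrophils, counted as 3′-end UMIs, which do not scale with transcript length. It measured 1042 and 845 CPM under vehicle and 1045 and 1334 CPM under PM there, a mean of 1067 ± 201 (SD, n = 4), 5.45 times the mean in the other neutrophils. Clec4d measured 660 and 656 against 983 and 637 CPM, a mean of 734 ± 166, 6.39 times that of the other neutrophils. For both, each of the 4 mice lay above every mouse of the next type. Single clusters of the other neutrophils came closer. For Clec4d they overlapped, the mean of cluster 3 lying above the inflammatory values of both vehicle mice and of PM mouse 2. Clusters 3 and 6 had mean levels of 681 and 611 CPM for Clec4d and 689 and 586 CPM for Clec4e. Thinned to 2000 UMIs, 72.6 ± 5.10% of inflammatory neutrophils held a Clec4e UMI and 68.0 ± 5.11% a Clec4d UMI, against 2.48 ± 0.510% and 1.61 ± 0.675% of T cells, although 56.7% of the inflammatory neutrophils were too shallow and were left out.

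Neutrophils outside that cluster had Clec4e at 214 and 168 CPM under vehicle and 152 and 248 CPM under PM, and Clec4d at 120 and 103 against 114 and 122 CPM. The groups overlapped for both. The log2 fold changes were −0.05 ± 0.22 (adjusted p = 0.92) and −0.01 ± 0.12 (adjusted p = 0.96). In inflammatory neutrophils they were 0.44 ± 0.20 (adjusted p = 0.28) for Clec4e and 0.40 ± 0.21 (adjusted p = 0.35) for Clec4d, where 1.06% of 4248 genes were called, and 0 of 6 receptors tested were called by edgeR or DESeq2, with Clec4n, Clec4e and Cd14 under an unadjusted p of 0.05.

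CAR cells and macrophages carried many neutrophil transcripts. CAR cells had Clec4e at 189 ± 37.1 CPM and Clec4d at 89.6 ± 37.6 CPM (SD, n = 4), while Clec4n was at 0 there, and macrophages had Clec4e at 94.9 ± 16.8 CPM. Neutrophil transcripts summed to at least 115656 CPM in each mouse in both types, and their part in these values was not tested. Non-classical monocytes had Clec4e at 168 and 141 CPM under vehicle and 44.3 and 152 CPM under PM. Their neutrophil transcripts summed to 6535 and 23374 CPM under vehicle and 35589 and 51152 CPM under PM, and the part of these was not tested. Mono&prog, with 16322 to 32052 CPM of neutrophil transcripts, had Clec4e at 115 and 65.3 CPM under vehicle and 49.3 and 77.3 CPM under PM (log2 fold change −0.56 ± 0.40, adjusted p = 0.67). Their Clec4d stood at 12.8 ± 3.68 CPM. The Clec4e effect in mono&prog minus that in neutrophils was −0.48 ± 0.13 (adjusted p = 0.038), under the fold threshold.

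Clec4n was detected among neutrophils mainly in the inflammatory cluster, at 256 and 154 CPM under vehicle and 86.3 and 78.5 CPM under PM, from 131, 143, 18 and 17 UMIs. Both PM mice lay below both vehicle mice. The log2 fold change of −1.18 ± 0.32 had an adjusted p of 0.082 in edgeR. Other neutrophils held 0.788 ± 0.340 CPM and T cells 0.122 ± 0.243 CPM. Macrophages measured 15 and 38.5 against 18.6 and 109 CPM, the highest in PM mouse 2 and the spread within each group large, and non-classical monocytes 25.3 and 58.8 against 31.6 and 6.59 CPM.

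In cDC, where it was not tested, Clec4n measured 6.54 and 0 CPM under vehicle and 32.2 and 41.0 CPM under PM, from 1, 0, 14 and 7 UMIs. The PM values were above the vehicle values on few UMIs. In the MHC class II monocytes it measured 7.23 and 10.8 against 46.3 and 39.4 CPM, from 9, 8, 4 and 6 UMIs. The PM values came from 15 and 20 cells. Clec4n passed the filter on low counts there only through the PM mice, so its fit is no test of a rise and is not given.

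Over the neutrophil clusters, ordered from cycling precursors to mature cells by the difference of their marker levels, most of the receptors were higher in later clusters. Clec4e had a mean of 26.7, 30.9, 56.2, 184, 406, 689 and 586 CPM over the 7 clusters. Clec4d stayed between 1.63 and 17.4 CPM in the first 4 and reached 232, 681 and 611 CPM in the last 3. Csf3r, one of the markers of mature cells used for the order, was also the gene most like Clec4e over all clusters, so the 2 are not independent.

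Tlr2 had 7.44 CPM in the first cluster and 218 and 234 CPM in the last 2, and Tlr4 14.8 CPM in the first and 67.7 and 56.0 CPM in the last 2. Tlr7 had its peak in the middle, at 9.35 CPM in the cluster led by Orm1 and Ltf and 1.58 and 1.82 CPM in the last 2. Clec4n did not exceed 0.636 CPM in the first 5 clusters, and stood at 7.72 and 1.66 CPM in the last 2, against 144 CPM in inflammatory neutrophils. The last cluster held 1081 and 374 cells under vehicle and 93 and 235 under PM.

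**Figure D3:**
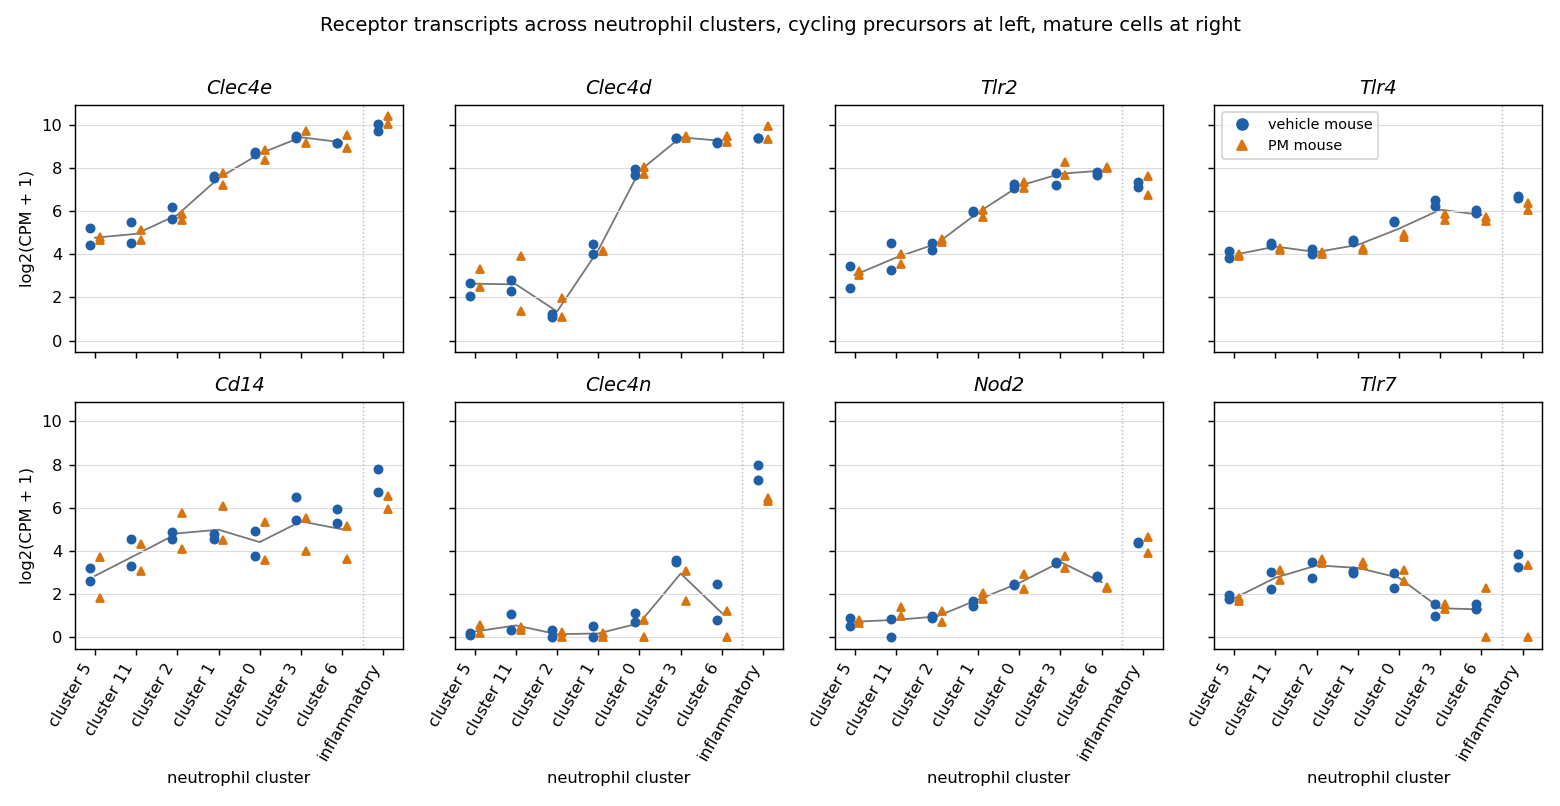
Level of the receptors in CPM (log axis) over the neutrophil clusters, from cycling precursors at the left to mature cells at the right, with inflammatory neutrophils shown beside them and 1 point per mouse. Clec4d, Clec4e, Tlr2 and Tlr4 were higher in the later clusters, and Tlr7 was highest in the middle ones.

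Within named sub-classes of neutrophils and mono&prog no receptor was called between PM and vehicle. Sub-clustering named 3 classes of neutrophils (9203 of 22770 cells) and 2 of mono&prog (389 of 3466). Of 30 pairs of a receptor and such a class that passed the filter, 0 were called by edgeR or DESeq2 and 4 were under an unadjusted p of 0.05. The background was 2.62% of 10628 genes called in cycling precursors, 1.52% of 6968 in mature neutrophils, 0.224% of 7137 in the class raised for inflammatory markers and 0.147% of 8164 in cycling monocyte progenitors.

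The class raised for inflammatory markers held 88 and 211 cells under vehicle and 1654 and 1434 under PM, and the mature class 1808 and 811 against 68 and 231. An unnamed sub-cluster led by Steap4, Wfdc17 and Cd244a, raised for 6 of the 8 inflammatory markers, moved the other way, with 1193 and 572 cells under vehicle and 70 and 103 under PM, as did the separate Ptgs2 and Il1b cluster, with 225 and 439 against 143 and 123 cells. The named class therefore does not count all neutrophils with inflammatory markers, of which Ccl3, Ccl4 and Il1rn themselves rose with PM. Sums over all neutrophils therefore mix stages in different proportions. Within the inflammatory class Clec4n measured 52.6 and 16.7 CPM under vehicle and 6.09 and 1.65 CPM under PM. The groups did not overlap, and the log2 fold change of −2.82 ± 0.72 had an adjusted p of 0.17 (edgeR). Clec4e (658 and 519 against 543 and 776 CPM) and Clec4d (564 and 606 against 687 and 605 CPM) overlapped between the groups in that class.

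Nod2 (chr8:88647315-88688474, plus strand) was low throughout, with its highest level among the types in inflammatory neutrophils, at 19.5 and 20.5 CPM under vehicle and 24.0 and 13.8 CPM under PM. Non-classical monocytes followed at 13.8 ± 3.56 CPM and cDC at 9.99 ± 5.70 CPM (SD, n = 4), with ranges that overlapped from each to the next, and the MHC class II monocytes within mono&prog measured 21.7, 20.3, 11.6 and 32.8 CPM. In mono&prog as a whole it measured 7.13 and 7.52 CPM under vehicle and 3.95 and 4.31 CPM under PM, from 106, 81, 69 and 32 UMIs. The groups lay well apart, but the log2 fold change of −0.86 ± 0.24 had an adjusted p of 0.10 (edgeR), and DESeq2 did not call it. Without the MHC class II cells, whose share was smaller under PM, the log2 fold change was −0.71 ± 0.26 (adjusted p = 0.24, edgeR). Neutrophils measured 2.52 and 2.14 against 2.23 and 3.75 CPM, and the effect in mono&prog minus that in neutrophils was −1.04 ± 0.30 (adjusted p = 0.051).

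**Figure D4:**
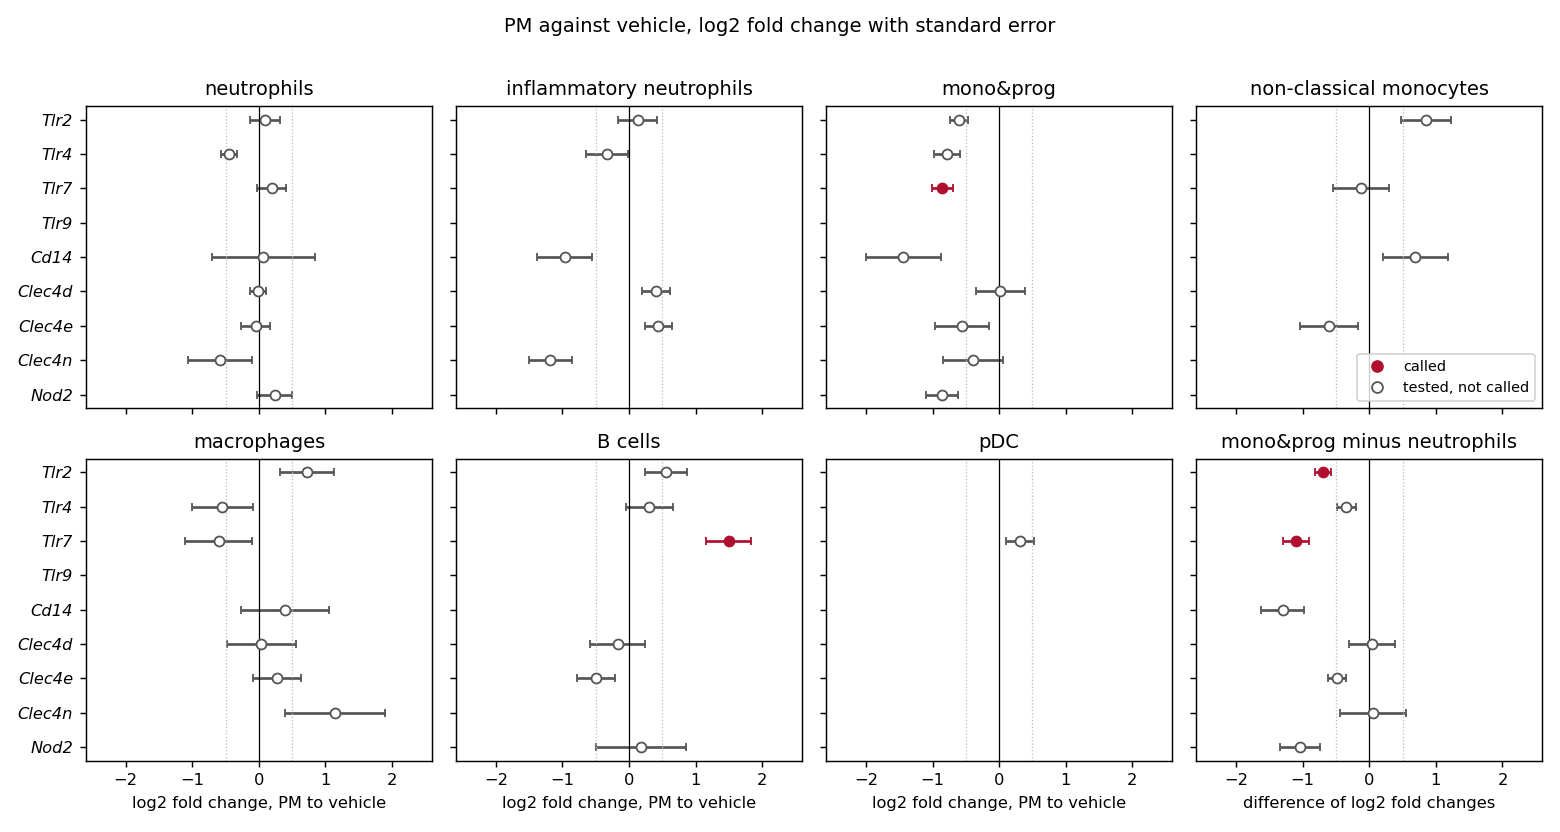
Log2 fold change of each tested receptor, PM to vehicle, with its standard error (edgeR), in 7 cell types, and the effect in mono&prog minus that in neutrophils at the lower right. Filled points were called; Tlr7 in mono&prog (−0.85) and in B cells (1.5) and the differences for Tlr2 (−0.70) and Tlr7 (−1.10) are the only filled ones, and Tlr9 is not plotted.

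The remaining types gave no call for a receptor. In macrophages 0 of 7 tested receptors were called by edgeR or DESeq2 or had an unadjusted p under 0.05, where 0.253% of 4750 genes were called higher and 0.0632% lower. Their Tlr7 measured 49.9 and 38.5 against 27.9 and 25.6 CPM (−0.60 ± 0.51, adjusted p = 0.80), and their Tlr2 59.9 and 46.8 against 89.8 and 73.7 CPM (0.72 ± 0.41, adjusted p = 0.62), both without overlap and from 8 to 29 UMIs. Macrophages had a median depth of 856.5 UMIs. Their neutrophil transcripts summed to 115656 and 177641 against 233120 and 173510 CPM, and the part of these was not tested. In cDC only Tlr2 was tested, at 91.6 and 65.8 against 46.0 and 64.4 CPM (−0.54 ± 0.41, adjusted p = 0.86, edgeR), where 0.171% of 4676 genes were called higher and 0% lower.

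Among the types that are not main sites of these receptors, 0 receptors were called by edgeR or DESeq2. The share of genes called was 0.0766% in CAR cells, 0.274% in HSPC, 0.185% in T cells, 0.209% in eosinophil and basophil progenitors, 0.2% in erythroid cells, 0% in megakaryocytes and 0.0631% in plasma cells. An unadjusted p under 0.05 was found for 1 of 3 receptors tested in T cells, 1 of 2 in eosinophil and basophil progenitors, 3 of 4 in erythroid cells and 1 of 4 in plasma cells, and for 0 in the other 3 types. The share of all genes under that p was not counted. In eosinophil and basophil progenitors the receptor was Clec4d, which passed the filter on low counts only through the PM mice. In NK cells no receptor passed the filter, and 0.485% of genes were called.

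The genes whose level over 30 clusters was most like that of a receptor were looked up among 10646 genes, by Pearson's r of log2(CPM + 1). Clusters share their libraries and differ in depth, so r is given as a description. Clec4e was most like Csf3r (0.97), the receptor of granulocyte colony-stimulating factor, Ppp1r3b (0.95) and Slc7a11 (0.95). Clec4d was most like Gm16556 (0.95), the neutrophil chemokine gene Cxcl2 (0.94) and the arginase gene Arg2 (0.94).

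Tlr2 was most like Lrrc25 (0.94), Klra2 (0.93) and 1600010M07Rik (0.93), Cd14 like Lst1 (0.94), Nadk (0.92) and Pstpip2 (0.92), and Tlr4 like Phyh (0.89), Skap2 (0.83) and N4bp1 (0.83). The nearest to Clec4n were E230029C05Rik (0.91), the anti-apoptotic gene Bcl2a1a (0.84) and Creb5 (0.82), and to Nod2 Ier5 (0.84), Arrdc3 (0.83) and Vnn3 (0.82). Tlr7 had weaker likeness, with the lysosomal protease gene Ctsh (0.78), Rab39 (0.77) and Hps3 (0.77), and Tlr9 was too low to be compared. Between receptors, r was highest for Tlr2 and Clec4e (0.90), Tlr2 and Cd14 (0.87) and Clec4d and Clec4e (0.87).

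Genes that work with these receptors were counted on 8 lists. In neutrophils 84 of them were tested, of which 6 rose and none fell by edgeR, a share of 7.14% beside the 4.76% of all genes called higher. The early response targets of NF-kB had 3 of 10 tested genes called higher and a median log2 fold change of 0.66, against 0.00 over all genes. The 3 were the chemokine genes Ccl3 (3.64, adjusted p = 0.0053) and Ccl4 (1.22, adjusted p = 0.040), and Il1rn (0.86, adjusted p = 0.0074), which encodes the interleukin-1 receptor antagonist. All 3 are also markers that named the inflammatory class of neutrophils. That class held 1.41% and 5.37% of neutrophils under vehicle and 23.2% and 26.4% under PM. An unnamed sub-cluster raised for such markers moved the other way, with 1193 and 572 against 70 and 103 cells. The part of this makeup in the early response values was not tested. Of 21 adaptors and kinases, the transcription factor genes Irf5 (1.31, adjusted p = 0.0035) and Irf7 (0.92, adjusted p = 0.0095), which act downstream of Tlr7 and Tlr9, were called higher. An unnamed neutrophil sub-cluster held 40 and 83 cells under vehicle and 1100 and 571 under PM. It was led by Ifit1 and Rsad2, which the study counts among interferon response genes, and its part in these values was not tested. Sigirr, an inhibitory member of the same receptor family, was called higher among 10 negative regulators (1.42, adjusted p = 0.015).

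No neutrophil gene was called among 5 other Toll-like receptors, 6 accessory proteins, 12 other C-type lectin receptors, 12 C-type lectin signaling genes or 8 genes of the NOD pathway, with medians between −0.20 and 0.28. Tlr13, which senses bacterial ribosomal RNA, measured 49.0 and 38.1 against 26.9 and 34.6 CPM (−0.61, adjusted p = 0.060). Transcripts of handling stress were called higher for 4 of 11 genes in neutrophils, Fos among them (1.03, adjusted p = 0.013), and their part in the early response values was not tested.

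In mono&prog 91 pathway genes were tested, of which 2 rose (2.2%) and 3 fell (3.3%), beside 1.23% and 0.546% of all genes. Tlr13 fell from 78.4 and 68.1 to 41.0 and 49.5 CPM (−0.74, adjusted p = 0.018), as did the C-type lectin receptors Clec4a3 (217 and 173 against 114 and 102 CPM, −0.88, adjusted p = 0.014) and Cd302 (−0.51, adjusted p = 0.041), while 12 of the 14 genes tested on that lectin list were not called and its median was 0.18. Sigirr (1.02, adjusted p = 0.022) and Il1rn (1.28, adjusted p = 0.0038) rose. The 11 early response targets had a median of −1.13, with only Il1rn called. The 11 handling stress genes had a median of −0.35 in mono&prog, with 0 called and their sum lowest in PM 1, and their part in the early response values was not tested.

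The adaptors (0 of 21 called), accessory proteins (0 of 8), C-type lectin signaling genes (0 of 12) and NOD pathway genes (0 of 8) had medians between −0.12 and −0.06. Over all lists in mono&prog, 22 genes were under an unadjusted p of 0.05 and DESeq2 called 10. The share of all mono&prog genes by either criterion is not given, so these counts do not set the lists apart.

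In pDC, 1 of 54 tested pathway genes was called higher (1.85%), beside 0.965% of all genes. Irf7 rose from 162 and 139 CPM to 291 and 299 CPM (0.95, adjusted p = 0.0024, edgeR), while DESeq2 called none. Of 9 handling stress genes tested in pDC, 2 rose (Fosb and Jun). The pDC sub-cluster led by Iigp1 and Kdr held 1 and 3 cells under vehicle and 91 and 58 under PM. The part of handling and of this makeup in the Irf7 value was not tested. In B cells 76 were tested, 2 rose and 2 fell (2.63% each), which is below the 3.1% and 3.3% of all genes, so that these counts do not set the lists apart. Unc93b1, the chaperone that carries Tlr7 and Tlr9 to endosomes, fell from 477 and 392 to 254 and 270 CPM (−0.73, adjusted p = 0.0045), and the ubiquitin ligase gene Traf6 fell (−0.74, adjusted p = 0.016), whereas Irf7 (1.65, adjusted p = 0.0057) and Cd36 (1.51, adjusted p = 0.0094) rose. Neutrophil transcripts fell for 4 of 10 genes in B cells, and their part in these values was not tested. Tlr1, a partner of Tlr2, measured 42.7 and 18.4 against 44.7 and 58.3 CPM (1.03, adjusted p = 0.072).

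No pathway gene was called in macrophages (0 of 59) or cDC (0 of 52) by edgeR or DESeq2, with 7 and 5 under an unadjusted p of 0.05. The signaling adaptors Tyrobp and Fcer1g were among the most abundant of these genes in both, with Fcer1g at 898, 1304, 1195 and 1064 CPM in macrophages in the order vehicle 1, vehicle 2, PM 1, PM 2. In these sums a lower level in a type cannot be told apart from a smaller share of the cells that express the gene.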

How the data were processed

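Raw UMI counts per gene and cell were used as deposited by the authors, who sequenced 10x Chromium 3′ libraries. The study's methods name Cell Ranger and GRCm38, the submitters' processing notes name Cell Ranger, STAR and GRCm39, and coordinates here are from GENCODE M21 on GRCm38, which held 32158 of the 32285 gene IDs. The members and gene lists were chosen with earlier results of these data known.

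Barcodes were kept from 300 detected genes upward and up to 20% mitochondrial UMIs. They were clustered with the receptors left out (scanpy 1.11.5, leidenalg 0.10.2, 2500 variable genes, 30 components, 15 neighbours, resolution 1), and clusters were named from marker lists. Doublets were called at the rate expected from the cell number and kept. Counts were summed per mouse and type and fitted over all genes with the robust, two-sided quasi-likelihood test of edgeR 4.0.16 after filterByExpr and TMM scaling, with Benjamini-Hochberg adjustment, in R 4.3.3, checked on simulated data, with DESeq2 1.42.0 as an alternative. An exact permutation test of 2 mice against 2 cannot go below p = 0.33. The p-values measure only the spread between these mice. The SE of an edgeR log2 fold change was derived from the test, as its absolute value divided by the square root of the F statistic. Shares of cells are those expected after drawing 2000 UMIs per cell, without shallower cells. A level of 0 has an upper limit of 3 counts.

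All members were named. On the other lists, up to 3 called genes per direction, list and type were taken, or the 2 with the highest mean where none was called, of which a part is printed. The genes most alike had at least 20 CPM in some cluster.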

Additional observations from a re-analysis of the deposited data

Results flagged for a closer look

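For 2 receptors the test of the difference itself separated the PM effect in mono&prog from that in neutrophils of the same mice. The difference of the log2 fold changes was −0.70 ± 0.12 (SE, adjusted p = 0.0012, edgeR) for Tlr2 and −1.10 ± 0.19 (adjusted p = 0.0012) for Tlr7, with both PM mice below both vehicle mice in mono&prog and overlapping groups in neutrophils. The makeup of both types also differed between the groups, and its part in these differences was tested only by leaving out the MHC class II monocytes.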

How the results depend on the processing

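Of 507 receptor values recomputed under the alternatives, 466 stayed on their side of the threshold, 28 were newly called, 13 were no longer called and 0 called values changed sign. Of the 466, 431 belonged to values not called in the main fit, and 40 had the other sign and were called in neither fit. The causes were not tested. Genes called numbered 647 in neutrophils (1309 without the filter on low counts, 323 to 892 leaving out a mouse), 208 in mono&prog (707 without the filter, 11 to 950 leaving out a mouse), 681 in B cells (185 with DESeq2, 78 to 1156 leaving out a mouse) and 633 for mono&prog minus neutrophils (258 to 819). The 2 called pairs of receptor and type became 9 without the filter and 0 to 9 leaving out a mouse, and the 0 calls in sub-classes became 1 without the filter and 0 to 2 leaving out a mouse. Tlr7 in mono&prog ranged from −1.04 to −0.72 leaving out a mouse, and was −0.64 at resolution 1.5 and, in alternatives chosen after seeing the data, −0.55 without MHC class II cells, −0.64 in cluster 4 and −0.94 in cluster 9. At resolution 1.5 an unnamed cluster of 772 cells led by Cx3cr1, Cd209a, Tppp3 and Ace was left out of every type. The inflammatory neutrophils also held other cells at that resolution. A cluster with 93 and 262 cells under vehicle and 958 and 760 under PM was named so. Another with 605 and 637 against 186 and 187 cells got the same name. In the main clustering the type held 225 and 439 against 143 and 123 cells. Tlr7 in B cells was 1.48 with DESeq2, 1.34 to 1.59 leaving out a mouse and 0.57 in cluster 7. The differences between the types ranged from −0.80 to −0.55 for Tlr2 and from −1.26 to −0.86 for Tlr7. Without thinning, 42.0% of pDC held a Tlr7 UMI and 1.57% a Tlr9 UMI.

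The replicate numbers are shared between groups without a stated pairing, and deviations of same-numbered mice correlated at −0.21 in neutrophils and −0.06 in mono&prog. With the replicate block, 469 genes were called in mono&prog, 6 pairs of receptor and type and 1 receptor in a sub-class. With the numbers crossed as a block, chosen after seeing the data, 1046 genes were called in neutrophils and 4 pairs. With 2 mice a group, 79 pairs of receptor and type had too few UMIs to be tested.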

Other observations

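Clec4d was low in eosinophil and basophil progenitors, at 7.96 and 4.67 CPM under vehicle and 34.9 and 19.7 CPM under PM, from 6, 3, 34 and 17 UMIs. Both PM mice lay above both vehicle mice. Clec4d passed the filter on low counts in this type only through the PM mice, so its fit is no test of a rise and is not given. Clec4e there measured 37.2 and 17.1 against 33.9 and 33.5 CPM, and neutrophil transcripts 70629 and 35252 against 70237 and 37915 CPM.

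Tlr7 in T cells was counted 2 and 3 times under vehicle and 20 and 18 times under PM, at 2.17 and 2.92 against 6.17 and 8.76 CPM, and had too few UMIs to be tested.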
